A study of Mus musculus with 6 samples.

Results

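The genes described here are 9 transcripts of the choroid plexus, the secretory epithelium that hangs into the brain ventricles: Ttr, Kl, Folr1, Enpp2, Igfbp2, Igf2, Prlr, Aqp1 and Cdkn1c. They serve as a check on how much choroid plexus each dissected cerebellum carried. The members were all probe sets of the array whose single gene symbol was 1 of these 9. This gave 10 probe sets for 7 genes, out of 12422 probe sets and 8251 genes with a symbol of their own. Enpp2 and Prlr had no such probe set and were not analysed here.

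The arrays profiled cerebella of 3 mice lacking L1cam, labelled L1CAM knockout (-/Y) and male, and of 3 wild type siblings, whose sex the labels leave out. All mice were of strain 129S2/SvPasCrlf and at postnatal day 11, and each had its own Affymetrix U74Av2 array. Whole cerebellum was extracted, so every array reads a mixture of cell types, and the sources used here do not say whether the choroid plexus was removed. L1cam, a cell adhesion molecule of growing axons, read 8.25, 8.01 and 7.91 in knockouts 1 to 3, against 8.79, 8.48 and 8.73 in wild type 1 to 3. It was thus lower in each knockout, with a difference of -0.60 (limma adjusted p = 0.841).

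The choroid plexus makes most of the cerebrospinal fluid and forms the barrier between blood and that fluid. The plexus of the fourth ventricle lies against the underside of the cerebellum, and it can stay on the tissue or come away with the brain stem. Its cells carry thyroid hormone and folate into the fluid, move water and ions, and release growth factors of the insulin-like family. Values are RMA log2 values, and levels of different probe sets are not set against each other.

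Array medians lay between 8.87 and 8.94, and values between 5.08 and 15.47. Pairs of arrays correlated at r between 0.9948 and 0.9974 across probe sets. Knockout 1 stood apart in 2 array checks and at other probe sets of wide range. Its 3' minus 5' gap of the Gapdh control was 0.668, against at most 0.130 in the other arrays. Its Y-linked Eif2s3y read 7.11, against 8.59 or more elsewhere, although the knockouts were labelled male, and the cause was not tested. At the 2 Actb probe sets ranked 3 and 4 by range, knockout 1 read 12.06 and 11.24, against at most 10.87 and 9.84 elsewhere. A probe set without a single gene symbol, ranked 2, read 6.43 in knockout 1, against 8.17 or more elsewhere. Zic1, a granule cell marker, read between 13.97 and 14.08 in the knockouts and between 13.99 and 14.06 in wild type. Pvalb, which Purkinje cells express, read between 13.88 and 14.22 in the knockouts and between 14.03 and 14.44 in wild type.

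Ttr encodes transthyretin, the thyroid hormone and retinol carrier that choroid plexus epithelium secretes in large amounts and that serves as its defining transcript in brain. It read 12.56, 12.43 and 10.20 in knockouts 1, 2 and 3, against 9.71, 12.55 and 12.13 in wild type 1, 2 and 3. Both genotypes therefore held 1 array far below the other two: knockout 3 and wild type 1. The range of 2.85 log2, or 7.23-fold between the highest and the lowest array, was the widest of all 12422 probe sets as deposited, and also after quantile normalization, median centring and cyclic loess. In a tissue homogenate, fewer choroid plexus cells and less Ttr RNA per cell cannot be told apart.

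**Figure D1:**
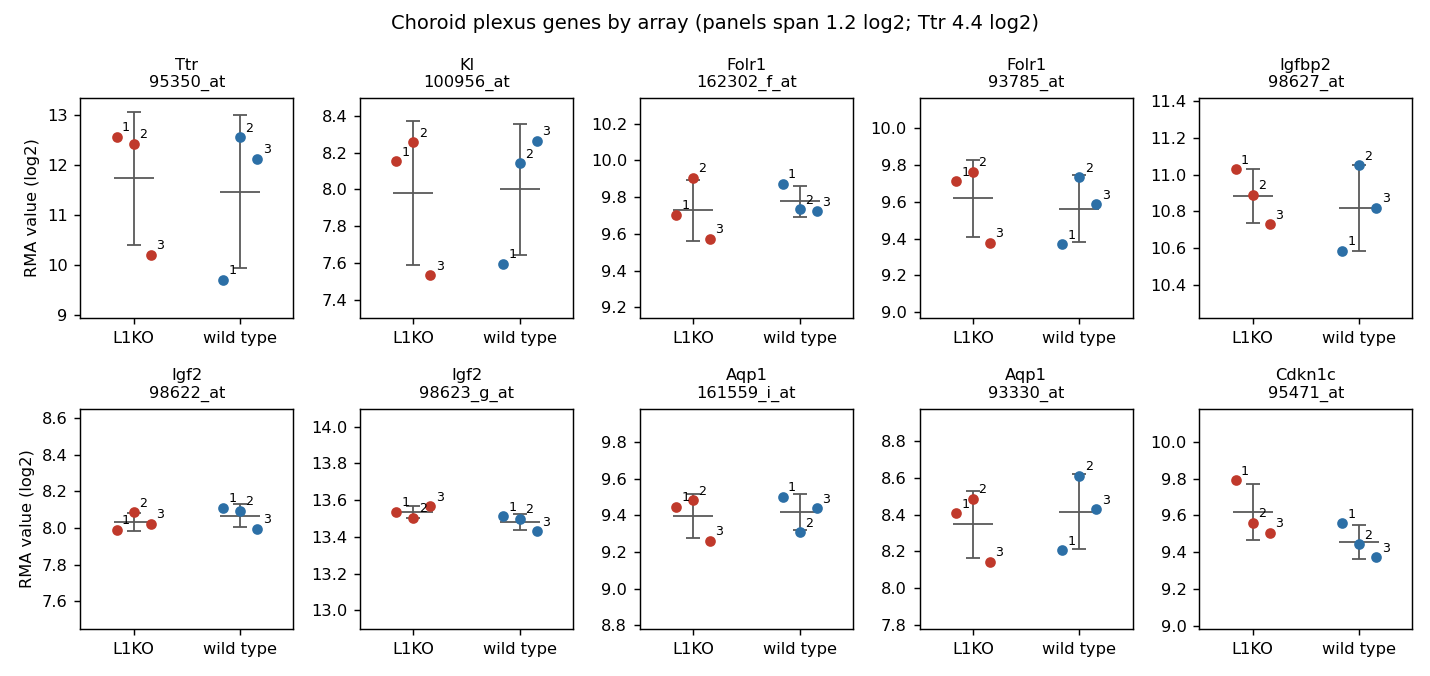
RMA log2 values (y axis) of the 10 choroid plexus probe sets in each array, L1KO at left and wild type at right, with the replicate number beside each point. Horizontal bars are group means and error bars the SD (n = 3). Ttr, on a wider axis than the rest, falls to 10.20 in knockout 3 and 9.71 in wild type 1.

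Kl encodes klotho, a transmembrane partner of fibroblast growth factor receptors that is abundant in kidney and choroid plexus. It read 8.15, 8.26 and 7.53 in knockouts 1 to 3, against 7.60, 8.14 and 8.26 in wild type 1 to 3. The same 2 arrays, knockout 3 and wild type 1, were lowest. The range was 0.73 log2 (1.66-fold), and the pooled SD within genotypes, 0.37, ranked 32nd of all probe sets.

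Folr1, the folate receptor alpha that moves folate from blood into cerebrospinal fluid, had 2 probe sets. At 93785_at it read 9.71, 9.76 and 9.38 in knockouts 1 to 3, against 9.37, 9.73 and 9.59 in wild type 1 to 3, again with knockout 3 and wild type 1 lowest. At 162302_f_at it read 9.70, 9.91 and 9.57 in the knockouts, against 9.87, 9.73 and 9.72 in wild type. There wild type 1 was the highest of its group, so the 2 probe sets disagreed on that array.

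Aqp1, the water channel of the apical membrane facing the ventricle, also had 2 probe sets. At 93330_at it read 8.41, 8.49 and 8.14 in knockouts 1 to 3, against 8.21, 8.61 and 8.43 in wild type 1 to 3. Knockout 3 and wild type 1 were lowest here too. At 161559_i_at the values were 9.45, 9.48 and 9.26 in the knockouts and 9.50, 9.31 and 9.44 in wild type, with wild type 1 the highest of all. Red blood cells also carry Aqp1. The 8 measured red cell genes summed to between 84.8 and 85.9 log2 units in the knockouts and between 84.3 and 85.0 in wild type, lowest in wild type 3, and their part in the Aqp1 values was not tested.

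Igfbp2, which binds insulin-like growth factors in the fluid, read 11.03, 10.89 and 10.73 in knockouts 1 to 3, against 10.59, 11.05 and 10.82 in wild type 1 to 3. Knockout 3 and wild type 1 were the 2 lowest, with a range of 0.47 log2 (1.38-fold). Igf2, the growth factor that choroid plexus and meninges express, varied little. At 98623_g_at it read 13.54, 13.50 and 13.57 in knockouts 1 to 3, against 13.51, 13.50 and 13.43 in wild type 1 to 3. At 98622_at all 6 arrays lay between 7.99 and 8.11. Its ranges of 0.14 and 0.12 log2 were below the median range of all probe sets, 0.23, and knockout 3 and wild type 1 were the 2 lowest arrays at neither.

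Cdkn1c, the imprinted inhibitor of cyclin-dependent kinases known as p57, read 9.79, 9.56 and 9.50 in knockouts 1 to 3, against 9.56, 9.44 and 9.37 in wild type 1 to 3. It followed another order: knockout 1 was highest, and wild type 2 and 3 were lowest. Its range was 0.42 log2.

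Among the 10 probe sets, knockout 3 and wild type 1 were thus the 2 lowest arrays in 5: Ttr, Kl, and 1 probe set each of Folr1, Igfbp2 and Aqp1. That pair was lowest in 350 of all 12422 probe sets (2.82%) as deposited. After quantile normalization, median centring and cyclic loess the same 5 members held it, against 3.54%, 2.88% and 3.75% of all probe sets. Ttr itself set the pair, and without Ttr the count was 4 of 9 (44.4%) as deposited. The pair was picked after its values were seen, so these counts are a description without a test. The other 5 probe sets, for Igf2, Cdkn1c and the second ones of Folr1 and Aqp1, did not share the order.

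**Figure D2:**
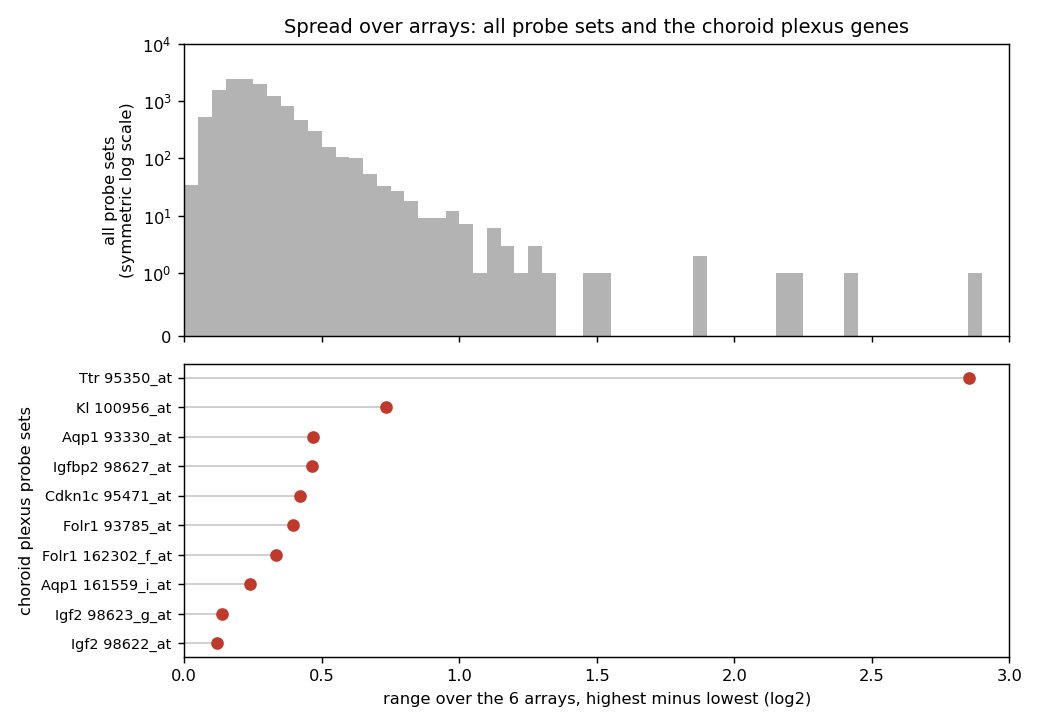
Range over the 6 arrays (x axis, log2) for all 12422 probe sets as a histogram (top, symmetric log count axis) and for each choroid plexus probe set as a point (bottom). Ttr lies alone at 2.85, Kl at 0.73, and the Igf2 probe sets at 0.14 or below.

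Promoters are shown for Kl and Aqp1, members with a probe set lowest in the same 2 arrays as Ttr (93330_at for Aqp1), and for Calml4 and Slc4a5, which ranked first among the genes outside the members by likeness to Ttr. Each runs from 250 bases before to 50 bases after the annotated start, from RefSeq on build GRCm38.p6, written 5′ to 3′ along the gene. Capitals mark the GC box GGGCGG on either strand.
Kl promoter, chr5:150952357-150952656, + strand: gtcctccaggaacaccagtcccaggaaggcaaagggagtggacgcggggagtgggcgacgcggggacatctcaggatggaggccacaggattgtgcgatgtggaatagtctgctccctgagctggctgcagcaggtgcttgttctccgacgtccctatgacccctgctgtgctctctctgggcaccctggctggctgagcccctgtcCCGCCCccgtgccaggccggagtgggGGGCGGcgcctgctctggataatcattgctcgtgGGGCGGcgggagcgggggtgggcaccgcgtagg
Aqp1 promoter, chr6:55336049-55336348, + strand: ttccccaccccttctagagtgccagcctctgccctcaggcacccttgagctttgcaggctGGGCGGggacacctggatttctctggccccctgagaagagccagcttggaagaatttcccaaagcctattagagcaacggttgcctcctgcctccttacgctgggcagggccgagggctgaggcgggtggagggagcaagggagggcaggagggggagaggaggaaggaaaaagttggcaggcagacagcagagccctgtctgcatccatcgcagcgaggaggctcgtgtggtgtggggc
Calml4 promoter, chr9:62857854-62858153, + strand: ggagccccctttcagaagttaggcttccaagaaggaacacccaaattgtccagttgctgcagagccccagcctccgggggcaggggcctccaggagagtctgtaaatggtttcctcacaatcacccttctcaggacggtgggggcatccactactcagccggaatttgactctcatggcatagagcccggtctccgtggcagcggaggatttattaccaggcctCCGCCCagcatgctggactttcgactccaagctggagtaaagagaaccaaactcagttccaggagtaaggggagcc
Slc4a5 promoter, chr6:83237125-83237424, + strand: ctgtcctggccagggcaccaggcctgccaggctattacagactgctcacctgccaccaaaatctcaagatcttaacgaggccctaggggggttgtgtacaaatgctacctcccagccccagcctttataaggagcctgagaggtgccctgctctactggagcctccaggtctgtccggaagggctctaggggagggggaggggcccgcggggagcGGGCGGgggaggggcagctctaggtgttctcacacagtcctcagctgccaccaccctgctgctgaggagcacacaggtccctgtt

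The Kl window held 3 GC boxes and those of Aqp1, Calml4 and Slc4a5 held 1 each, where 35.7% of 32851 promoter windows held at least 1. G and C made up 67.3% of the Kl window, 62.7% of the Aqp1 and Slc4a5 windows and 56.7% of the Calml4 window, with a median of 52.7% over all windows. The core site TAATCC of bicoid-class homeodomain factors such as Otx2, sought on both strands, was in none of the 4, and in 7.06% of all windows. The TATA box TATAAA, sought on both strands, stood once in the Slc4a5 window and in 13.6% of all windows. None of the 3 motifs is contained in another. Igfbp2 has 2 annotated starts, and the first of its windows held 3 GC boxes and the second 0. The 4 Igf2 windows held 0, 0, 1 and 2, and the 3 Prlr windows 0 each.

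By genotype, no member passed the test. Of the 10 probe sets 0 passed an adjusted p of 0.05 in limma, as did 0% of all 12422, and their adjusted p-values ran from 0.922 to 0.989. At an unadjusted p under 0.05 there were 0 of 10, against 5.08% of all probe sets (631). In 0 of 10 did the knockout arrays lie wholly apart from the wild type arrays, against 10.4% of all. The knockout mean was higher in 5 of 10, against 37.7% of all, and the median difference was 0.018 over the members and -0.023 over all probe sets.

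Ttr averaged 11.73 ± 1.32 in the knockouts and 11.46 ± 1.53 in wild type (SD, n = 3 each), a difference of 0.27 log2 with a 95% interval from -1.37 to 1.91. The 2-sided exact permutation test gave p = 0.6, and 3 arrays against 3 cannot go below 0.1. Single arrays set the sign of this difference. It was 1.03 without knockout 3, -0.61 without wild type 1, -0.15 without knockout 1 and -0.08 without knockout 2. Without both knockout 3 and wild type 1, a setting added after seeing the data, it was 0.16 (limma adjusted p = 0.999).

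Kl averaged 7.98 ± 0.39 in the knockouts and 8.001 ± 0.36 in wild type (SD, n = 3 each), a difference of -0.02 (95% interval -0.47 to 0.43) that was 0.20 without knockout 3 and -0.22 without wild type 1. It turned to 0.02 after quantile normalization and to 0.01 after median centring and after cyclic loess. Folr1 differed by 0.06 at 93785_at (95% interval -0.20 to 0.31) and by -0.05 at 162302_f_at. Igfbp2 differed by 0.06 (95% interval -0.19 to 0.32). Aqp1 differed by -0.07 at 93330_at (95% interval -0.32 to 0.18) and by -0.02 at 161559_i_at.

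Cdkn1c had the smallest p of the members. It averaged 9.62 ± 0.15 in the knockouts and 9.46 ± 0.09 in wild type (SD, n = 3 each), a difference of 0.16 (SE 0.09, limma adjusted p = 0.922), and of 0.08 without knockout 1, the array with the wide Gapdh gap. Igf2 had the narrowest intervals, with differences of 0.06 (95% interval -0.08 to 0.19) at 98623_g_at and -0.03 (95% interval -0.17 to 0.10) at 98622_at. After quantile normalization and cyclic loess the second of these lay at or above 0.

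**Figure D3:**
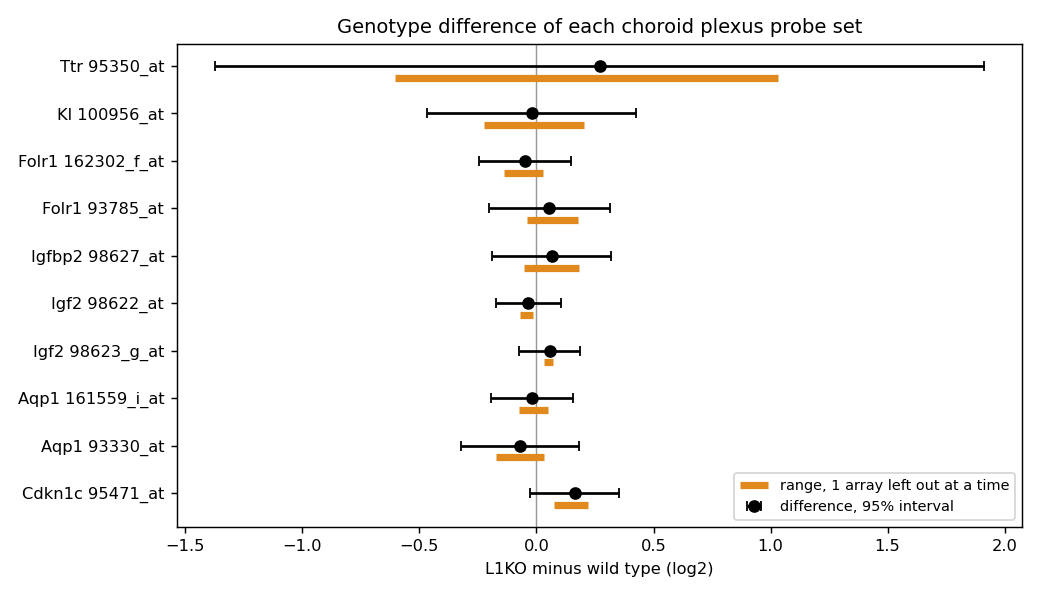
Difference L1KO minus wild type (x axis, log2) of each choroid plexus probe set, as points with 95% limma intervals, and as orange bars the range when 1 array is left out at a time. Every interval spans 0, and the Ttr bar runs from -0.61 to 1.03.

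Likeness to Ttr was measured by Pearson's r over the 6 arrays. Because Ttr falls into a low pair and a high set of 4, r serves only to rank. Among the members, r was 0.96 for Folr1 93785_at, 0.95 for Kl, 0.91 for Igfbp2 and 0.90 for Aqp1 93330_at, and between -0.39 and 0.10 for the other 5 probe sets. Over the 4 arrays left after removing knockout 3 and wild type 1, Folr1 93785_at was at 0.84, Igfbp2 at 0.92 and Aqp1 93330_at at 0.39. Kl was at -0.82 over those 4, so its likeness rests on the 2 low arrays. Igf2 98623_g_at, at -0.39 over the 6, was at 0.94 over the 4, and Cdkn1c at 0.65.

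Outside the members, genes were ranked by r among the 471 probe sets with 1 symbol and a range of at least 0.5 log2. The first 3 were all on the list of other choroid plexus genes. They were also the only genes of that list to reach this range, the next being Ezr at 0.43 log2. Knockout 3 was the lowest array in each, so the range floor and the ranking drew on the same values. Calml4, a calmodulin-like protein, read 9.54, 9.56 and 8.67 in knockouts 1 to 3, against 8.96, 9.63 and 9.40 in wild type 1 to 3 (r = 0.93, and 0.90 over the 4). Slc4a5, a sodium bicarbonate cotransporter of the apical membrane, read 7.32, 7.04 and 6.37 in the knockouts, against 6.69, 7.04 and 7.04 in wild type (r = 0.87, and 0.48 over the 4). Lbp, the lipopolysaccharide-binding protein, read 10.26, 10.10 and 9.73 in the knockouts, against 9.90, 10.14 and 9.98 in wild type (r = 0.84, and 0.90 over the 4).

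In all 3 genes knockout 3 and wild type 1 were the lowest arrays, with knockout 3 below wild type 1, whereas for Ttr wild type 1 lay lower. Ranking by r with Ttr favours genes with that lowest pair, so the shared pair is no separate support. The next were Bex1 (r = 0.75) and Cebpd (r = 0.75), which are on no list. Over the 4 remaining arrays Bex1 stayed at r = 0.67 and Cebpd was at r = -0.97, so the likeness of Cebpd also rests on the 2 low arrays. None of the 5 passed by genotype (limma adjusted p = 0.927 or more).

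**Figure D4:**
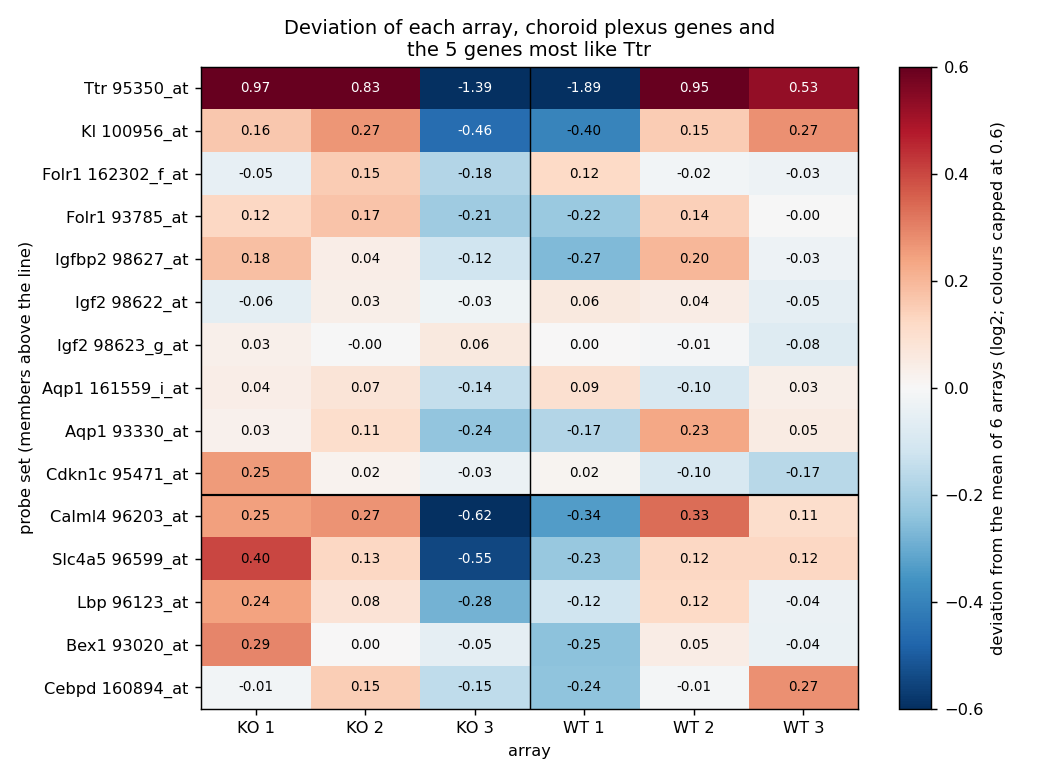
Deviation of each array from the mean of the 6 arrays (log2, colour capped at 0.6, value printed in each cell) for the choroid plexus probe sets above the line and the 5 genes outside the members most like Ttr below it. The columns of knockout 3 and wild type 1 are negative for Ttr, Kl, Folr1 93785_at, Igfbp2, Aqp1 93330_at, Calml4, Slc4a5 and Lbp.

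Of 53 further choroid plexus genes listed, 33 were measured, at 43 probe sets. By genotype 0 of the 33 passed, 12 had their higher mean in the knockouts and 21 their lower, and the median was -0.025, against -0.022 over all genes. Wfdc2, a secreted protease inhibitor, had the smallest p at a difference of -0.15 (limma adjusted p = 0.922), and Slc39a4, a zinc transporter, read between 12.24 and 12.35 in the knockouts and between 12.31 and 12.38 in wild type. Knockout 3 and wild type 1 were the 2 lowest arrays in 11 of the 43 probe sets (25.6%), 1 each for 11 genes. Beside Calml4, Slc4a5 and Lbp these were Car12, Slc31a1, Cab39l, Htr2c, Col8a1, Krt18, Vamp8 and Perp, named here after their values were seen. Their ranges were smaller than that of Ttr: Car12, a carbonic anhydrase, read 8.13, 8.12 and 8.03 in knockouts 1 to 3, against 8.01, 8.10 and 8.12 in wild type 1 to 3. Some lay near the floor of the array. The counted Krt18 probe set averaged 5.51 (percentile 0.3 of all probe sets by level) and Htr2c 6.01 (percentile 4.1). Krt18, Vamp8 and Slc31a1 each had another probe set with a different lowest pair.

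Lists of other cell types held that order in few or no probe sets, where 2.82% of all probe sets held it. At that share short lists would also hold few or none, and the pair was picked after its values were seen. Knockout 3 and wild type 1 were the 2 lowest arrays in 0 of 9 probe sets of ependyma and motile cilia, 0 of 52 of meninges and fibroblasts, 0 of 21 of brain endothelium, 0 of 9 of red blood cells and 0 of 16 of astrocytes and Bergmann glia. They were so in 1 of 20 of oligodendrocytes and myelin, 0 of 19 of granule cells and 0 of 18 of Purkinje cells. The summed level of the 33 meningeal genes ran from 302.2 to 303.5 in the knockouts and from 300.6 to 303.4 in wild type, lowest in wild type 3. That of the 9 ependymal genes ran from 81.4 to 82.2 in the knockouts and from 81.8 to 82.2 in wild type, lowest in knockout 3.

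**Figure D5:**
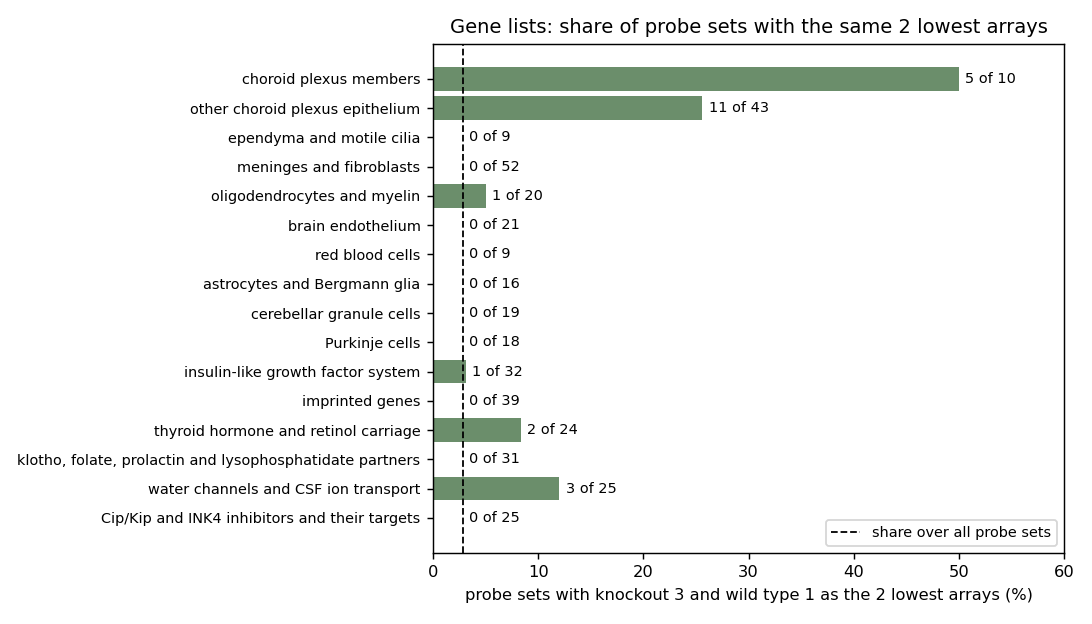
Share of the probe sets of each gene list (x axis, percent; counts printed at the bars) in which knockout 3 and wild type 1 were the 2 lowest arrays, with the 2.82% over all probe sets as a dashed line. The choroid plexus members stand at 5 of 10 and the other choroid plexus genes at 11 of 43. The 5 include Ttr, which set the pair.

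Rsph1, a protein of motile cilia, read 11.42, 11.60 and 11.44 in knockouts 1 to 3, against 11.42, 11.47 and 11.61 in wild type 1 to 3, and Meig1 differed by -0.05 between genotypes. Ptgds, the prostaglandin D synthase of meninges that choroid plexus also expresses, read 14.08, 13.89 and 14.16 in the knockouts, against 14.12, 14.02 and 13.75 in wild type, so it was lowest in wild type 3. Serpinh1, a collagen chaperone, differed by 0.14, and Eng by 0.06 and Nos3 by -0.14 on the vascular list. On the myelin list Mbp differed by -0.14 and Qdpr by 0.15. Of its 13 genes 2 were higher and 11 lower in the knockouts (84.6%, median -0.119), against 61.7% lower over all genes (median -0.022). Hba-a1, an alpha globin, differed by 0.29 (limma adjusted p = 0.841). Fabp7, the brain fatty acid-binding protein, is on the list of astrocytes and Bergmann glia and differed by 0.17. After quantile normalization, median centring and cyclic loess it differed by 0.06, 0.20 and 0.11. Aqp4, on the same list, differed by -0.37, and its groups did not overlap, as in 10.4% of all probe sets. The knockout mean was below the wild type mean for 8 of the 11 genes on that list (72.7%), against 61.7% over all genes. Among granule cell genes Atoh1, the transcription factor of granule cell precursors, differed by -0.13. Among Purkinje cell genes the calcium buffer Pvalb differed by -0.15 and the calcium channel subunit Cacna1g by -0.23. As for Aqp4, the groups of Qdpr, Nos3, Hba-a1 and Atoh1 did not overlap. None of the genes named here passed, nor did any other gene of these lists.

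The partners of the members by pathway did not pass either. Over all 8251 genes, 61.7% were lower in the knockouts, the median was -0.022 and 5.22% had an unadjusted p under 0.05, and the counts that follow stand beside those shares. In the insulin-like growth factor system, 0 of 21 genes passed, 4 were higher and 17 lower (81%) in the knockouts (median -0.066), and 4 had an unadjusted p under 0.05. Such p-values also fell to 3 of 8 red blood cell genes, 2 of 11 of astrocytes and Bergmann glia, 2 of 15 of granule cells and 1 of 13 of oligodendrocytes and myelin. Igf2r, the receptor that clears Igf2, read 9.03, 9.10 and 9.15 in knockouts 1 to 3, against 9.23, 9.50 and 9.40 in wild type 1 to 3. The groups did not overlap, as in 10.4% of all probe sets, and the difference was -0.28 (95% interval -0.46 to -0.11, limma adjusted p = 0.885). Insr, the insulin receptor, was lower in all 3 knockouts as well, at 8.10, 8.02 and 7.85, against 8.29, 8.21 and 8.33 in wild type 1 to 3 (difference -0.29, limma adjusted p = 0.885). Igf1, a ligand of the system, differed by 0.002 (95% interval -0.13 to 0.13).

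Of 28 other imprinted genes 12 were higher and 16 lower (57.1%) in the knockouts (median -0.012), with Gnas, a G protein subunit, at 0.07. Of 20 genes of thyroid hormone and retinol carriage, the cargo of transthyretin, 8 were higher and 12 lower (60%, median -0.039), with the thyroid hormone receptor Thra at 0.05 and the corepressor Hr at -0.14. Of 21 partners of klotho, folate, prolactin and lysophosphatidate, 7 were higher and 14 lower (66.7%, median -0.036), with the folate enzyme Shmt2 at -0.04 and the lipid phosphatase Plpp3 at 0.17. In all of these 3 lists 0 genes passed, and 2, 0 and 1 had an unadjusted p under 0.05.

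Of 21 water channels and ion transporters 5 were higher and 16 lower (76.2%, median -0.031), 0 of them past the threshold and 2 with an unadjusted p under 0.05. Aqp4, the aquaporin of astrocytes, differed by -0.37 (95% interval -0.60 to -0.13, limma adjusted p = 0.885), and Atp1b3, a sodium pump subunit, by 0.15. Among 18 cell cycle inhibitors and their targets, the relatives of Cdkn1c, 9 were higher and 9 lower (50%, median 0.001), 0 of them past the threshold and 0 with an unadjusted p under 0.05, with Cdk4 at 0.07 and Pcna, a replication factor, at 0.20.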

How the data were processed

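The authors deposited RMA values on a log2 scale, per the submitters' processing notes; RMA corrects background, normalizes between arrays and summarises each probe set. Its settings are not known here. Of 12488 probe sets, 66 array controls were left out and 12422 tested. In the supplied annotation 10833 had 1 symbol, 396 several and 1193 none. Arrays have no read depth, and their number limits the precision: the 95% interval extended a median of 0.158 log2 from the difference.

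Each array was taken as 1 mouse, since the design text counts 3 per genotype. Genotype was tested with limma 3.58.1 in R 4.3.3 (lmFit, eBayes, 2-sided, Benjamini-Hochberg over 12422 probe sets, threshold 0.05), and Ttr also with an exact permutation test. In simulated data for 12422 probe sets, 95% of probe sets changed 1.5-fold were called, and 100% of those changed 2-fold. So were 13 unchanged ones. The simulated noise was normal, independent between arrays and drawn from the fitted variance prior. These shares therefore do not give the power in the deposited values. There L1cam, at -0.60, had a limma adjusted p of 0.841, and Ttr had a pooled SD of 1.43 within genotypes. List counts used the probe set with the highest mean of each of 8251 genes. Of 391 listed symbols, 390 stood in a RefSeq gene table.

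The members and the lists were chosen with earlier results of these data known. The genes named are every member probe set, L1cam, the gene with the highest mean level and the one with the smallest unadjusted p of each of 15 other lists, and the 5 most like Ttr outside the members. Alternatives were 3 other normalizations, removal of probe sets under the 40th percentile of mean level, eBayes with a robust trend, array weights, a replicate block, each array left out, averaging the probe sets of a gene and a threshold of 0.1. Leaving out 2 arrays together was added after seeing the data.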

Additional observations from a re-analysis of the deposited data

How the results depend on the processing

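With 1 array left out at a time, 0 or 1 probe sets of the array passed in limma, and 0 members. The 1 was Sox11, named after its values were seen and no member, at -0.69 without knockout 3 (adjusted p = 0.0447). In every other setting, the added one included, 0 passed; 7 of the 10 members lay above the level filter. The Ttr difference ran from -0.61 without wild type 1 to 1.03 without knockout 3. The ranges were -0.22 to 0.20 for Kl, -0.14 to 0.028 for Folr1 162302_f_at, -0.042 to 0.18 for Folr1 93785_at, -0.052 to 0.18 for Igfbp2, -0.074 to 0.047 for Aqp1 161559_i_at and -0.17 to 0.032 for Aqp1 93330_at. They were -0.26 to 0.22 for Calml4, -0.22 to 0.26 for Slc4a5, -0.090 to 0.17 for Lbp, -0.14 to 0.12 for Cebpd, -0.068 to 0.043 for Rsph1, -0.031 to 0.16 for Ptgds, -0.0074 to 0.047 for Zic1, -0.020 to 0.031 for Igf1, -0.011 to 0.12 for Thra and -0.040 to 0.17 for Cdk4. Igf2 98623_g_at and Cdkn1c kept a positive sign in all settings.

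Differences near 0 turned sign with the scaling, and the cause was not tested. After quantile normalization these were Kl at 0.020, Igf2 98622_at at 0.010, Slc4a5 at 0.020, Cebpd at 0.014, Zic1 at -0.050 and Igf1 at -0.028. After median centring they were Kl at 0.012, Aqp1 161559_i_at at 0.012, Slc4a5 at 0.020, Cebpd at 0.017 and Rsph1 at 0.020. After cyclic loess they were Kl at 0.015, Igf2 98622_at at 6.2e-05, Aqp1 161559_i_at at 0.00021, Slc4a5 at 0.017, Cebpd at 0.015, Zic1 at -0.034 and Igf1 at -0.014. With array weights Slc4a5 was 0.065. With probe sets averaged per gene Folr1 was 0.0034, Igf2 0.011 and Igf1 -0.030. Without both knockout 3 and wild type 1 Kl was 0.0016, Folr1 162302_f_at 0.077, Aqp1 161559_i_at 0.089, Calml4 0.037, Slc4a5 0.14, Slc39a4 0.0096 and Shmt2 0.027.

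Deviations of same-numbered arrays from their genotype means correlated at 0.160, -0.316 and 0.169. With 3 arrays per genotype these values cannot decide whether the replicate numbers pair the arrays. With the replicate number as a block, 0 probe sets passed. The smallest limma adjusted p, that of L1cam, was 0.196, against 0.841 without the block, and that of the members was 0.948. The Ttr difference stayed at 0.27, which was fixed in advance, since each replicate number holds 1 array of each genotype.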

Other observations

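Among probe sets with no symbol or several in the annotation and a range of at least 0.5 log2, 97317_at was the most like Ttr (r = 0.98 over 6 arrays). It was chosen after its values were seen. It read 12.09, 12.16 and 11.30 in knockouts 1 to 3, against 10.90, 12.15 and 12.14 in wild type 1 to 3, a range of 1.26 log2. Over the 4 arrays left without knockout 3 and wild type 1, r was -0.24.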
